A study of Homo sapiens with 8 samples.

Results

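The genes described here are 5 lung lineage transcription factors (*NKX2-1*, *FOXA1*, *FOXA2*, *GATA6* and *SOX2*), 2 secretory genes of the alveolus (*SFTPB* and *NAPSA*) and 2 mucin genes (*MUC1* and *MUC5AC*). They were taken by name, and all 9 were found among the 57815 gene identifiers of the files. RNA-seq of 2 established human lung adenocarcinoma lines, ABC1 and HCC4006, gave their levels in 8 libraries. Both are lines that the labels describe as free of *KEAP1* and *NRF2* mutations. Cells of both lines grew in low-glucose DMEM with fetal bovine serum and received either DEM (diethyl maleate, an electrophile that inhibits KEAP1) at 100 μM for 16 h or the vehicle DMSO. The 4 groups (ABC1 with vehicle, ABC1 with DEM, HCC4006 with vehicle and HCC4006 with DEM) held 2 libraries each, numbered 0 and 1, and paired values below stand in that order. The first question was which lineage program each line kept with vehicle, and the second was how these genes stood with DEM against vehicle within each line. Each line comes from 1 tumor, so a difference between the lines belongs to ABC1 and HCC4006 and to no wider class of tumors.

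As background, NKX2-1 (also called TTF-1) is the homeodomain factor that first marks the lung field of the foregut, and in the adult it stays on in alveolar type II and club cells. The forkhead factors FOXA1 and FOXA2 open chromatin and bind beside NKX2-1 at surfactant gene promoters, GATA6 is a zinc-finger factor of distal lung epithelium, and SOX2 marks the proximal airway, where SOX9 marks the distal tips of the branching lung. *SFTPB* encodes surfactant protein B, and *NAPSA* encodes napsin A, an aspartic protease that processes the precursor of surfactant protein B and is stained together with NKX2-1 in the diagnosis of lung adenocarcinoma. MUC1 is a membrane mucin of most glandular epithelia and MUC5AC a gel-forming mucin of goblet cells. NRF2, the factor released when KEAP1 is inhibited, binds antioxidant response elements and induces detoxifying enzymes.

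On GRCh37, *NKX2-1* lies on the minus strand at chr14:36985597-36990354 and *FOXA1* on the minus strand of the same chromosome at chr14:38058757-38065264, with 1068403 bp between the gene bodies. *FOXA2* lies at chr20:22561636-22566093 (minus strand), *GATA6* at chr18:19749550-19782491 (plus strand) and *SOX2* at chr3:181429713-181432224 (plus strand). *SFTPB* lies at chr2:85884437-85895864 (minus strand), *NAPSA* at chr19:50861729-50869087 (minus strand), *MUC1* at chr1:155158300-155162707 (minus strand) and *MUC5AC* at chr11:1151580-1222364 (plus strand). The kit kept strand, but whether the FPKM estimates used it is not given in the sources used here. *NAPSA* lies within the span of *NR1H2* on the opposite strand, *NKX2-1* overlaps *NKX2-1-AS1* on the opposite strand and a gene model of *SFTA3* on its own strand, and *SOX2* lies within *SOX2-OT* on the same strand, so reads of these pairs may have been shared between them.

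Promoter sequences are shown for 3 of the genes that differed between the lines and for *SLC34A2*, a type II cell gene whose level with DEM is described below. They are the 250 bases before the annotated start, 5′ to 3′, from RefSeq on GRCh38.p14, a different build from that of the gene positions above. Capitals mark motif letters found on either strand, which are CTCAAG for NKX2-1, TGTTTAC or TGTTTGC for the FOXA factors and TGACNNNGC for the antioxidant response element. The windows are chr14:36519557-36519806 (minus strand) for the second annotated start of *NKX2-1*, chr14:37595250-37595499 (minus strand) for *FOXA1*, chr19:50369303-50369552 (minus strand) for the first start of *NAPSA* and chr4:25656214-25656463 (plus strand) for the second start of *SLC34A2*.
NKX2-1: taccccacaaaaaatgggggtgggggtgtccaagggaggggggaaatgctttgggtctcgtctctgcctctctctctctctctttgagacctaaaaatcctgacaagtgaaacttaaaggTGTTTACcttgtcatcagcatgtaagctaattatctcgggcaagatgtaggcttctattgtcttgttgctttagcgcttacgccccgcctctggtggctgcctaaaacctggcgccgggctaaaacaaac
FOXA1: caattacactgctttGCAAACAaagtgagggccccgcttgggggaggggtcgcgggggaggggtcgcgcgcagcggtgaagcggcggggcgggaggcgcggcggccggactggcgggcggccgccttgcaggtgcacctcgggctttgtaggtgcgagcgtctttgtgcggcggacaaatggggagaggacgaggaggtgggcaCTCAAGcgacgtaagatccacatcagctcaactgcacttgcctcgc
NAPSA: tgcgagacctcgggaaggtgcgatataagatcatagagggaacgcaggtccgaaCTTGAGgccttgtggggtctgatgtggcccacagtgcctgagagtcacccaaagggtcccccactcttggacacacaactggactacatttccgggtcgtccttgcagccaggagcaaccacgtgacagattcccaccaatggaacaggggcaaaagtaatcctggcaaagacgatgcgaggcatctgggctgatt
SLC34A2: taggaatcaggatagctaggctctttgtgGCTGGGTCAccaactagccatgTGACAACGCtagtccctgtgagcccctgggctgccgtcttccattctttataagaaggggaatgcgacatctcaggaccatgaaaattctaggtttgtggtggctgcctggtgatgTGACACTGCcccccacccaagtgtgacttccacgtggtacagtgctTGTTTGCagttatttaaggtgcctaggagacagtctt

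In these windows the *NKX2-1* promoter held the FOXA letters 130 bases before the start, which is position -130 (the first start held them at position -241), and the *FOXA1* promoter held the FOXA letters at position -235 and the NKX2-1 letters at position -46. The first *NAPSA* start held the NKX2-1 letters at position -196, and its second start held no letters of any motif searched. The second *SLC34A2* start held the antioxidant response element letters 3 times, at positions -221, -199 and -83, and the FOXA letters at position -37, while its first start held none of the letters. Over the table's 35116 promoters, counted with 50 further bases after the start, 12.4% held the NKX2-1 letters, 7.17% the FOXA letters and 13.3% the antioxidant response element letters, and 0.0769% held the last at least 3 times. Promoters of related genes were searched beside those of the 9 genes, and *SLC34A2* was picked from them for printing. The last share therefore does not measure how unusual its 3 copies are. Over the same longer windows, *NKX2-1* and *MUC1* also held the NKX2-1 letters after the start, and the second start of *SFTPB* the antioxidant response element letters. The windows of the *MUC1* starts overlap, and the letters found in them are the same ones. TGATAA, the GATA motif, was in 7.53% of all promoters and CATTGT, the SOX motif, in 10.8%, and neither was in a promoter of these genes. The windows of *GATA6* and *SOX2* held no letters of any of the 5 motifs, and 7 of the 9 genes had a promoter in the table. Letters alone do not make a bound site.

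The libraries were alike in overall signal. The sum of FPKM values differed by at most 1.18 times between libraries, 12515 to 13573 genes per library reached 1 FPKM, and log2(FPKM + 1) of the 2 libraries of a group correlated across genes at r = 0.992 to 0.995. All 8 genes of a list of NRF2 targets rose with DEM in ABC1 and in HCC4006, among them *HMOX1*, the heme-degrading oxygenase, by 3.19 and 3.09 on the log2 scale (limma adjusted p = 0.0043 and 8.8e-05). Of 9 leukocyte, endothelial and fibroblast markers that matched, *CD68* was 102 and 91.2 FPKM in HCC4006 with vehicle and *COL1A1* 7.57 and 7.64 FPKM, while the pan-leukocyte gene *PTPRC* was at most 0.192 FPKM in any library. The part of other cells in the values below was not tested.

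The lines kept different lineage factors with vehicle: HCC4006 expressed *NKX2-1*, *FOXA2* and *NAPSA*, which were under 1 FPKM in ABC1, and ABC1 expressed *SOX2* and *GATA6*, which were at or under 1.23 FPKM in HCC4006. *FOXA1* was expressed in both lines and higher in HCC4006, *MUC1* was high in both, and *SFTPB* and *MUC5AC* were under 1 FPKM in every library. FPKM, fragments scaled to transcript length and to the library's total, allows levels to be compared between genes.

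*NKX2-1* was 0.626 and 0.763 FPKM in ABC1 with vehicle and 47.1 and 42.7 FPKM in HCC4006 with vehicle. The groups did not overlap, and the HCC4006 mean (44.9 ± 3.14 FPKM, SD, n = 2) was 64.6 times the ABC1 mean (0.694 ± 0.0965 FPKM, SD, n = 2). In HCC4006 it stood above 80.4% of the 13530 genes that had a mean of at least 1 FPKM.

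*FOXA1* was 12.1 and 14.2 FPKM in ABC1 with vehicle and 46.1 and 44.5 FPKM in HCC4006 with vehicle, and every HCC4006 library lay above every ABC1 library. Its mean in HCC4006 was 3.44 times that in ABC1 and was close to that of *NKX2-1*. In ABC1 it lay near the middle of the expressed genes, above 50.6% of the 12608 genes at 1 FPKM or more. *FOXA2* was listed at 0 in both ABC1 vehicle libraries and was 6.76 and 4.77 FPKM in HCC4006, well under its relative *FOXA1*. Their relative *FOXA3* was likewise listed at 0 in both ABC1 vehicle libraries and was 6.34 and 6.11 FPKM in HCC4006.

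*GATA6* ran the other way, at 7.59 and 8.57 FPKM in ABC1 and 0.757 and 0.688 FPKM in HCC4006 with vehicle. Its ABC1 mean was 11.2 times the HCC4006 mean, and the groups did not overlap. *SOX2* was 75.1 and 81.4 FPKM in ABC1 and 0.841 and 1.23 FPKM in HCC4006. The *SOX2* mean in ABC1 (78.3 ± 4.44 FPKM, SD, n = 2) was 75.4 times that in HCC4006 (1.04 ± 0.279 FPKM, SD, n = 2) and stood above 89.3% of expressed genes, the highest level among the 5 factors in ABC1.

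*NAPSA* was 0.474 and 0.234 FPKM in ABC1 and 16.0 and 15.3 FPKM in HCC4006 with vehicle, with no overlap and a 44.3-fold difference of the means. *NR1H2*, the gene on the other strand of the *NAPSA* locus, had means of 44.7 FPKM in ABC1 and 30.6 FPKM in HCC4006. The part of shared reads in the *NAPSA* values was not tested. *SFTPB* was listed at 0 in all 4 ABC1 libraries and was 0.270 and 0.0386 FPKM in HCC4006 with vehicle. HCC4006 thus carried the *NAPSA* transcript at a level where that of *SFTPB*, which encodes a substrate of napsin A, was close to 0.

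*MUC1* was 121 and 72.2 FPKM in ABC1 and 112 and 94.5 FPKM in HCC4006 with vehicle. The 2 lines overlapped, and *MUC1* stood above 91.3% of the expressed genes in ABC1 and 92.3% in HCC4006. *MUC5AC* was listed at 0 in all 4 ABC1 libraries and was 0.0512 and 0.000931 FPKM in HCC4006 with vehicle.

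**Figure D1:**
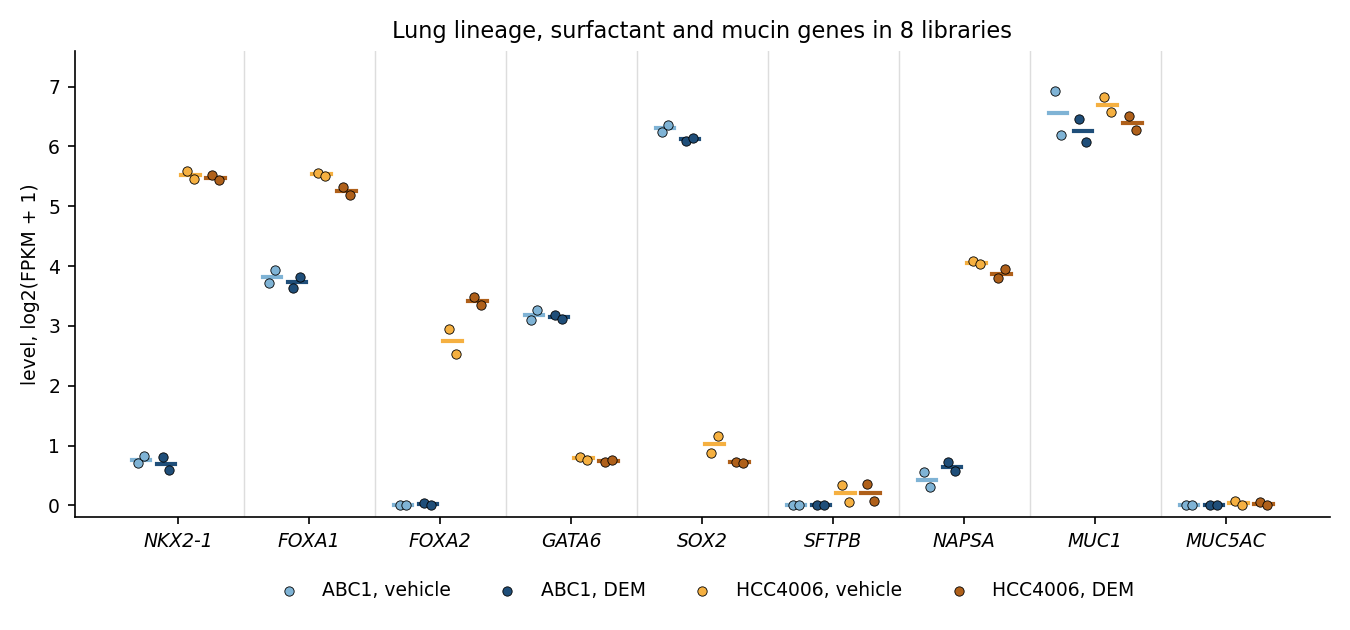
Level of each gene as log2(FPKM + 1) in the 8 libraries; points are libraries, bars are group means and colors are the 4 groups. *NKX2-1*, *FOXA2* and *NAPSA* are high in the HCC4006 libraries and near 0 in ABC1, *SOX2* and *GATA6* the reverse, and *MUC1* overlaps between the lines.

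The order of the 4 groups was therefore set by line for *NKX2-1*, *FOXA1*, *FOXA2*, *NAPSA*, *GATA6* and *SOX2*. Within HCC4006, the vehicle and DEM libraries of *NKX2-1* interleaved, and within ABC1 those of *NKX2-1*, *FOXA1* and *GATA6* did. For *MUC1* the order of the means was HCC4006 with vehicle (103 FPKM), ABC1 with vehicle (96.4 FPKM), HCC4006 with DEM (83.3 FPKM) and ABC1 with DEM (76.5 FPKM), and each neighboring pair overlapped in its libraries.

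The difference between the lines was tested by limma on log2(FPKM + 1) over the 4 vehicle libraries, with adjustment over all 13747 genes whose mean reached 1 FPKM. At an adjusted p under 0.05, 67.7% of these genes were called, so a call between the lines was common and the sizes below say more than the count. Of the 9 genes 7 entered the test, of which 4 were higher in HCC4006 (background 37.3%), 2 were lower (background 30.4%) and *MUC1* was not called. *NKX2-1*, *FOXA2*, *NAPSA* and *GATA6* passed the minimum through the line in which they are high, so nothing is read from that count. The log2 differences (HCC4006 minus ABC1) were 4.76 (SE 0.12, adjusted p = 9.7e-06) for *NKX2-1*, 3.63 (SE 0.14, adjusted p = 2.9e-05) for *NAPSA* and 1.71 (SE 0.11, adjusted p = 1.4e-04) for *FOXA1*. *SOX2* differed by -5.29 (SE 0.14, adjusted p = 1.0e-05) and *GATA6* by -2.40 (SE 0.13, adjusted p = 7.9e-05). For *FOXA2* no fold is given, since ABC1 was listed at 0, and its adjusted p was 1.6e-04. The *MUC1* difference was 0.14 with a 95% interval of -0.50 to 0.79 (adjusted p = 0.640), which leaves room for a difference in either direction. Without replicate 0 of ABC1 with vehicle, *MUC1* was higher in HCC4006 by 0.51 (adjusted p = 0.038), and without replicate 1 the difference was -0.22, so the 2 ABC1 libraries decide it.

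Between the lines with DEM, tested in the same way over the 4 DEM libraries, *NKX2-1*, *FOXA2* and *NAPSA* passed the minimum through HCC4006 and *GATA6* and *SOX2* through ABC1, so nothing is read from the count of calls here either. Here 63.6% of 13555 genes were called, 34.8% higher and 28.8% lower, and the differences were 4.79 for *NKX2-1*, 3.23 for *NAPSA*, 1.52 for *FOXA1*, -5.40 for *SOX2* and -2.41 for *GATA6*, with adjusted p between 1.2e-05 and 3.5e-04. *FOXA2*, 10.1 and 9.23 FPKM in HCC4006 with DEM against 0.0287 and 0 FPKM in ABC1, had an adjusted p of 3.7e-05, and *MUC1* was not called (0.13, adjusted p = 0.542).

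Among 14 alveolar type II genes, HCC4006 with vehicle expressed some that ABC1 lacked and was itself near 0 for others. Of the 8 tested, 5 were higher in HCC4006 and 0 were lower, with a median difference of 1.07 against 0.07 over all genes. For this list and those below, the shares over all genes were 37.3% higher and 30.4% lower, and genes near 0 in 1 line were tested because of the other. *SLC34A2*, the phosphate carrier of type II cells, was 0.155 and 0.0541 FPKM in ABC1 and 169 and 151 FPKM in HCC4006 (log2 difference 7.18, adjusted p = 5.3e-06). *SFTA2*, a surfactant-associated secreted protein, was listed at 0 in ABC1 and was 42.0 and 46.3 FPKM in HCC4006. *SFTA3* was at most 0.00162 FPKM in ABC1 and 14 and 12.9 FPKM in HCC4006. *ABCA3*, which loads surfactant lipid into lamellar bodies, was 3.86 and 4 FPKM in ABC1 and 12 and 11.4 FPKM in HCC4006 (1.37, adjusted p = 2.6e-04). Transcripts of the surfactant proteins themselves were low in both lines, with *SFTPA1* listed at 0 in every library, *SFTPC* at most 0.00956 FPKM, *SFTPA2* at most 0.139 FPKM and *SFTPD* at most 0.722 FPKM. *LPCAT1*, *CTSH* and *LAMP3* were expressed in both lines and not called.

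Alveolar type I genes were split between the lines. Of 6 tested, 3 were higher and 3 lower in HCC4006. *EMP2* (0.357 against 51.4 FPKM, ABC1 and HCC4006 means) and *HOPX* (0.204 against 13.9 FPKM) were higher in HCC4006, while *CLIC5*, a chloride channel protein (40.8 against 0.0329 FPKM), and *AGER* (5.36 against 0.504 FPKM) were higher in ABC1. Of the club cell genes 2 of 8 were tested and both were higher in HCC4006, namely *SCGB3A1*, a secretoglobin listed at 0 in ABC1 and at 10.4 and 9.58 FPKM in HCC4006, and *PIGR*, the carrier of secreted immunoglobulin, listed at 0 in ABC1 and at 3.73 and 3.13 FPKM in HCC4006. The club cell secretoglobin *SCGB1A1* was listed at 0 in every library.

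Although *MUC5AC* was near 0 in both lines, genes of mucous cells were not. Of 7 goblet and mucous cell genes tested, 6 were higher in HCC4006 and 1, *AGR2*, was lower, with a median difference of 4.06. *SPDEF*, the goblet cell ETS factor, was listed at 0 in both ABC1 vehicle libraries and was 77.4 and 67.4 FPKM in HCC4006. *CREB3L1* (0.420 against 56.5 FPKM, means) and *GCNT3*, a mucin-type glycosyltransferase (at most 0.00151 FPKM in ABC1 and 28.1 FPKM in HCC4006), differed likewise, and *CEACAM5* was listed at 0 in ABC1 and had a mean of 15.8 FPKM in HCC4006. Among the other mucins, *MUC20* was higher in HCC4006 (22 against 80.5 FPKM, means), while *MUC15* (12.3 against 0.213 FPKM) and *MUC3A* (22.9 against 6.18 FPKM) were higher in ABC1. The gel-forming *MUC2*, *MUC5B* and *MUC6* were under 1 FPKM in every library. By mean over the 4 vehicle libraries, 0 of 12 gastrointestinal lineage genes and 0 of 8 neuroendocrine genes that matched reached the minimum. In HCC4006 alone *CDX2*, an intestinal homeobox factor, was 1.67 and 2.13 FPKM and *POU2F3*, the tuft cell factor, 1.35 and 1.61 FPKM, and *HNF4A* was at most 0.0657 FPKM in any library.

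Of 18 other lung developmental factors tested, 8 were higher in HCC4006, 8 were higher in ABC1 and 2 were not called. *SOX9* was opposite to *SOX2*, listed at 0 in all 4 ABC1 libraries and at 13.2 and 11.1 FPKM in HCC4006 with vehicle. Another 3 factors were high with *SOX2* and *GATA6* in ABC1, and each was lower by more than 3 on the log2 scale in HCC4006. These were *ELF5*, an ETS factor of distal tips (28.8 against 0.179 FPKM, means), *FOXP2* (15.8 against 0.0784 FPKM) and *ID2* (183 against 11.8 FPKM). Of the basal and squamous genes 3 were tested, *TP63* (1.09 against 6.37 FPKM, means) and *PKP1* (0 against 6.84 FPKM) being higher in HCC4006 and *KRT15* (31.4 against 12.1 FPKM) in ABC1, and *KRT5* was at most 0.0109 FPKM. Of 4 ciliated cell genes tested, *DNAH5* was higher in HCC4006 and *MCIDAS* and *CAPS* were lower. The *CAPS* call (-0.49, limma adjusted p = 0.0395) was past the threshold in only 5 of 12 alternative settings. *FOXJ1*, the ciliated cell factor, was at most 0.144 FPKM and was not tested. Both lines were epithelial by all 9 general epithelial genes, of which 2 were higher and 5 lower in HCC4006, the largest difference being *KRT7* (25.6 against 2080 FPKM, means). The lists were chosen with results of these data known, and genes that are near 0 in 1 line were tested because of the other, so these counts describe the lines and are no test of a list.

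**Figure D2:**
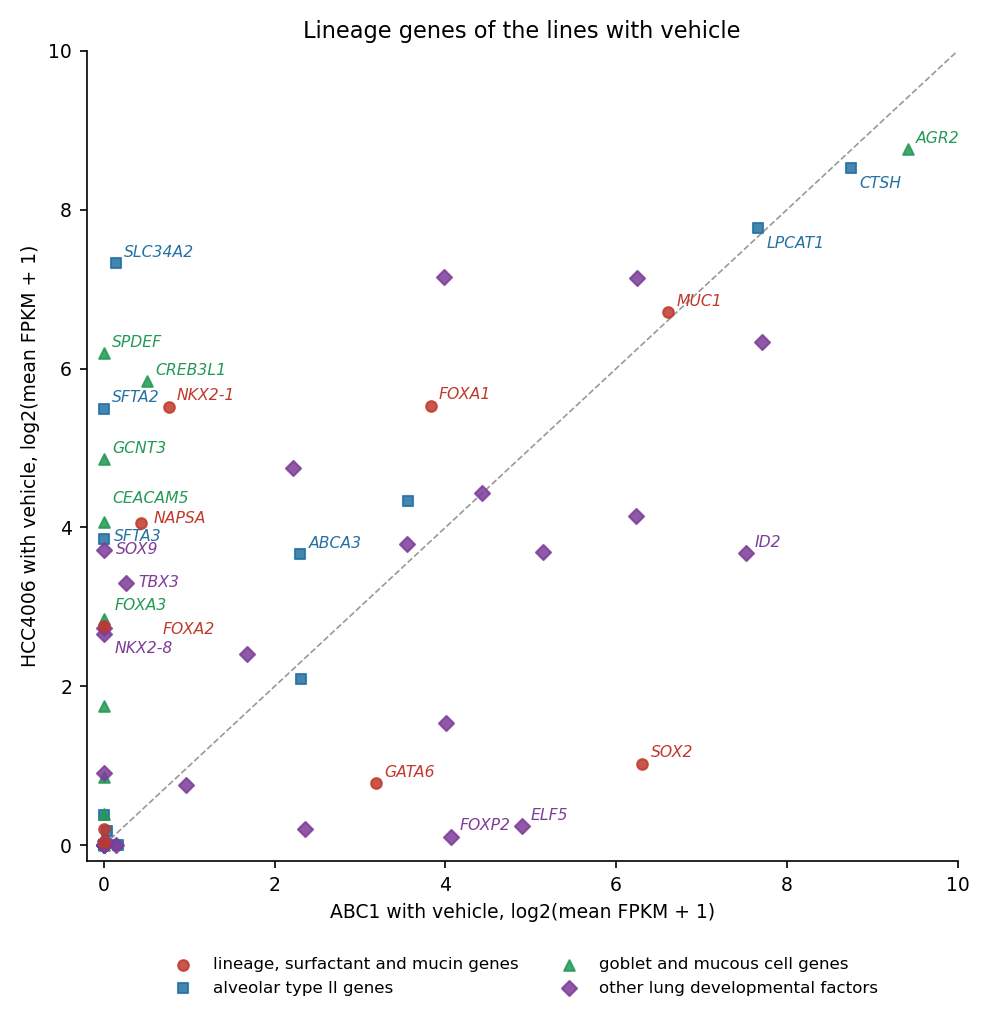
Mean level with vehicle in HCC4006 against ABC1, both as log2(mean FPKM + 1), for the 9 genes and 3 lists of related genes, where the dashed line marks equal levels. *SLC34A2*, *SPDEF*, *NKX2-1* and *NAPSA* lie far above the line, *SOX2*, *GATA6*, *ELF5*, *FOXP2* and *ID2* far below it, and *MUC1*, *AGR2*, *CTSH* and *LPCAT1* near it.

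Because *NKX2-1* and *FOXA1* share a chromosome arm, the genes around them were listed as well. The window, chr14:35905930-38065264, was chosen after values were seen. It reached 1079667 bp on either side of chr14:36985597, the lower coordinate of *NKX2-1*, where this minus-strand gene ends. Of the window's 10 genes tested, 9 were higher in HCC4006 with vehicle, 0 were lower and *RALGAPA1* was not called (0.29, adjusted p = 0.375), and 37.3% of all genes were called higher. The window was set to hold *NKX2-1*, *FOXA1* and *SFTA3*, already known to be higher in HCC4006, and *NKX2-1*, *SFTA3*, *NKX2-8* and *TTC6* passed the minimum through HCC4006, so nothing is read from the count. The differences were 4.76 for *NKX2-1*, 3.85 for *SFTA3* and 2.41 for *PAX9*, and 1.71 for *FOXA1*. *NKX2-8*, the homeobox neighbor of *NKX2-1*, was listed at 0 in ABC1 and was 5.57 and 5.02 FPKM in HCC4006. The other called genes of the window differed by less, *MBIP* by 1.19, *BRMS1L* by 1.02, *MIPOL1* by 0.90 and *TTC6*, which overlaps *FOXA1* on the opposite strand, by 0.88. The copy number of the region was not measured here, and its part in these values was not tested.

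**Figure D3:**
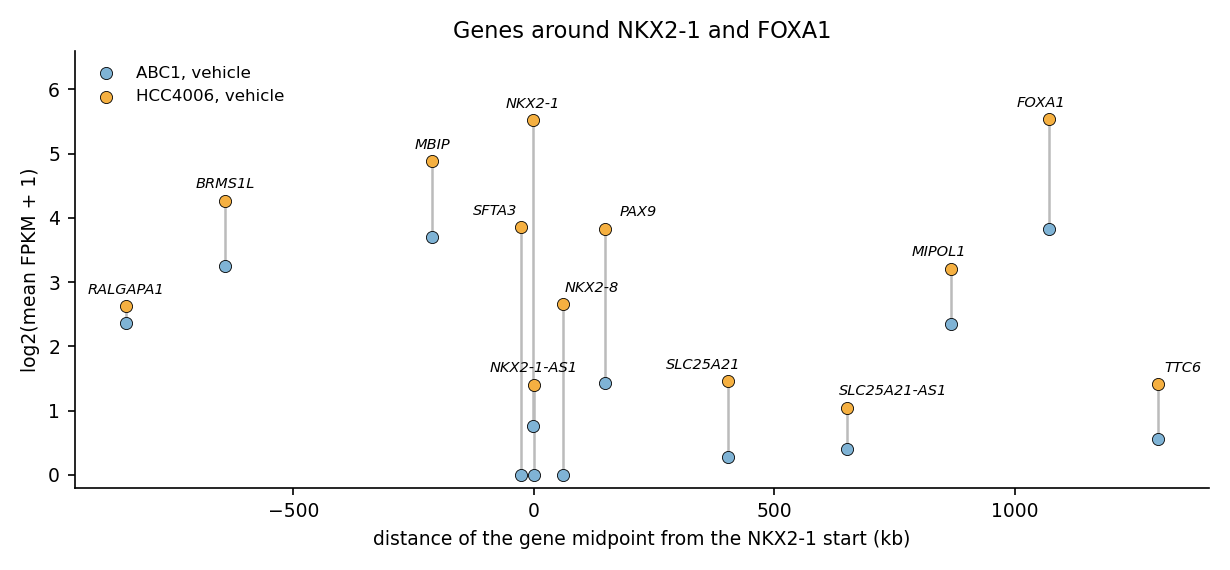
Mean level with vehicle, as log2(mean FPKM + 1), of the genes around *NKX2-1* and *FOXA1* that reached 1 FPKM in any library, by the distance of the gene midpoint from the *NKX2-1* start in kb; gray lines join the lines' values. The HCC4006 point lies above the ABC1 point for every gene drawn, by the most for *NKX2-1* and by little for *RALGAPA1*.

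Patterns most like each gene were sought by Pearson's r of log2(FPKM + 1) over the 8 libraries among 13682 genes, a description that the split between the lines sets, since 4 libraries of each line are compared. At r of at least 0.99 there were 874 genes like *NKX2-1*, 723 like *NAPSA*, 460 like *FOXA1*, 404 like *SOX2*, 400 like *GATA6* and 240 like *FOXA2*, and 0 like *MUC1*. The closest to *NKX2-1* were *TCEAL3*, *FAM50B* and *EPHX3*, to *NAPSA* were *RRAGA*, *FUT11* and *MMP24*, and to *FOXA1* were *REEP6*, *IFNGR2* and *GALNT10*. The closest to *FOXA2* were *DRAXINP1*, *TTC22* and *ALDH1L2*, and to *GATA6* were *SCARB1*, *NTN1* and *SRPRA*. *SOX2* was most like *IGF2*, the fetal growth factor, whose mean was 5556 FPKM in ABC1 and 1.45 FPKM in HCC4006 with vehicle, followed by *CLDN6*, a claudin of fetal epithelia (356 against 0.968 FPKM), and *VGLL1* (352 against 0.532 FPKM). *MUC1*, which did not follow the lines, was most like *TRIM13* (r = 0.920), *GABPB1-AS1* (r = 0.916) and *BMS1P4-AGAP5* (r = 0.897).

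With DEM the split between the lines remained. Every group mean stayed on the side of 1 FPKM where the vehicle mean had been, except that of *SOX2* in HCC4006, which was 1.04 FPKM with vehicle and 0.644 FPKM with DEM. In ABC1, *SOX2* was 67.2 and 69.6 FPKM with DEM, both below the vehicle libraries (75.1 and 81.4 FPKM). *GATA6* was 8.06 and 7.69 FPKM with DEM, within the vehicle range, and *FOXA1* was 11.4 and 13.2 FPKM and overlapped the vehicle libraries. *MUC1* was 86.9 and 66.1 FPKM with DEM and also overlapped.

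Over 12635 genes tested in ABC1, limma called 1.2%, of which 0.768% of all genes were higher and 0.435% lower, and it called 0 of the 4 genes that could be tested, with 0 at an unadjusted p under 0.05. Of all genes tested in ABC1, 2771 were under that unadjusted threshold. The DEM minus vehicle differences were -0.19 for *SOX2* (95% interval -0.49 to 0.11, adjusted p = 0.404), -0.03 for *GATA6* (-0.38 to 0.32, adjusted p = 0.920), -0.09 for *FOXA1* (-0.46 to 0.28, adjusted p = 0.754) and -0.30 for *MUC1* (-0.96 to 0.37, adjusted p = 0.558). The smallest difference called in ABC1 was 0.80 on this scale, and no smaller difference was called in any gene. *NKX2-1* (0.745 and 0.502 FPKM with DEM) and *NAPSA* (0.646 and 0.487 FPKM with DEM) were below the minimum in ABC1. Both *NAPSA* values lay above both vehicle values (0.474 and 0.234 FPKM), at a level where no test was made. *FOXA2* was 0.0287 FPKM in 1 ABC1 library with DEM and was listed at 0 in the other 3.

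In HCC4006, *FOXA2* was the gene of the set that rose. It was 6.76 and 4.77 FPKM with vehicle and 10.1 and 9.23 FPKM with DEM, with no overlap between the groups. The mean with DEM was 1.68 times the vehicle mean, a log2 difference of 0.67 (SE 0.17, 95% interval 0.27 to 1.08, adjusted p = 0.0412). Here 19.1% of 13542 genes were called, 8.45% higher and 10.7% lower, so 1 called gene of the 5 tested is close to the background. The *FOXA2* call did not hold under 6 of 12 alternative settings, in which the adjusted p ranged up to 0.243, among them leaving out replicate 1 of HCC4006 with vehicle (adjusted p = 0.143), replicate 0 with DEM (adjusted p = 0.158) or replicate 1 with DEM (adjusted p = 0.108). The difference was positive in all 12, between 0.46 and 0.89.

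*FOXA1* moved the other way in value, from 46.1 and 44.5 FPKM with vehicle to 39.0 and 35.4 FPKM with DEM, and the groups did not overlap. Its difference of -0.28 (95% interval -0.48 to -0.08) did not pass (adjusted p = 0.0654). *NAPSA* was 12.9 and 14.5 FPKM with DEM, below both vehicle libraries (16.0 and 15.3 FPKM), and its difference of -0.18 (-0.43 to 0.06) had an adjusted p of 0.243. *MUC1* was 90.2 and 76.3 FPKM with DEM, below both vehicle libraries (112 and 94.5 FPKM), and its difference of -0.31 (-0.60 to -0.02) had an adjusted p of 0.117. A full separation of 2 libraries from 2 has a p of 0.333 in an exact permutation test. The share of all genes separated with DEM was not counted, so nothing is read from the separations with DEM in either line.

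*NKX2-1* was 44.9 and 42.4 FPKM with DEM against 47.1 and 42.7 FPKM with vehicle in HCC4006, an overlap, and its difference of -0.04 lay in an interval of -0.25 to 0.17 (adjusted p = 0.774). *GATA6* (0.652 and 0.689 FPKM with DEM) and *SOX2* (0.646 and 0.642 FPKM with DEM) were under the minimum in HCC4006, and the *SOX2* values lay below both vehicle values (0.841 and 1.23 FPKM). *SFTPB* was 0.277 and 0.0475 FPKM with DEM and *MUC5AC* 0.0357 and 0 FPKM, close to their vehicle values.

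**Figure D4:**
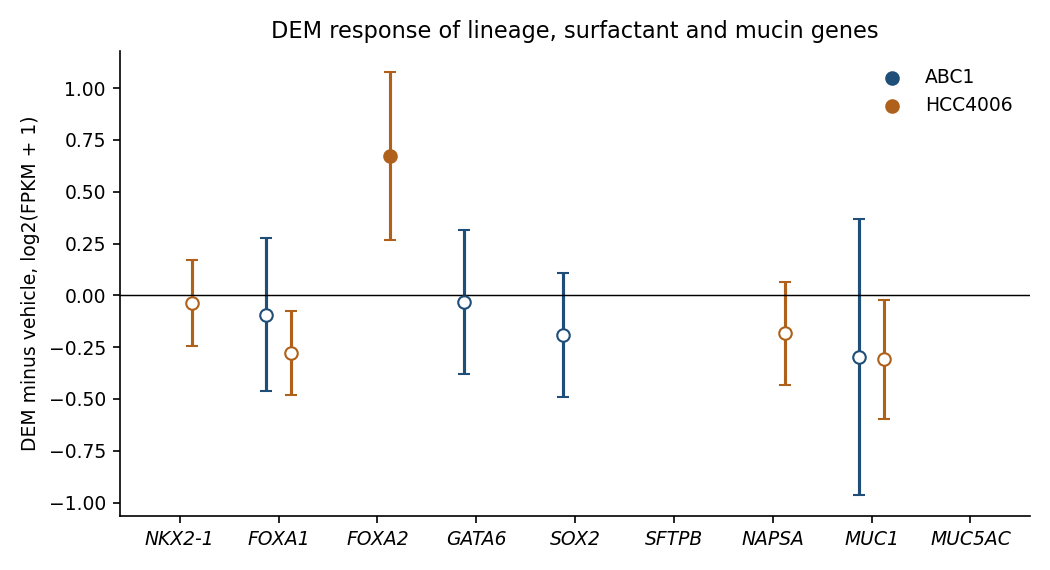
DEM minus vehicle difference of log2(FPKM + 1) for the genes tested in ABC1 and in HCC4006; points are limma estimates, bars are 95% intervals, and a filled point has an adjusted p under 0.05. *FOXA2* in HCC4006 is the 1 filled point, the interval spans 0 for all 4 genes tested in ABC1 and for *NKX2-1* and *NAPSA* in HCC4006, and it lies below 0 for *FOXA1* and *MUC1* in HCC4006.

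The response of HCC4006 minus that of ABC1 was tested over all 8 libraries. It was called for 0.636% of 13682 genes, 0.307% higher and 0.329% lower, and for 0 of the 7 genes of the set that could be tested, with 1 (*FOXA2*) at an unadjusted p under 0.05. Of all genes tested, 2068 were under that unadjusted threshold. For *FOXA2* the difference between responses was 0.65 (95% interval 0.10 to 1.2, adjusted p = 0.250) and for *NAPSA* it was -0.40 (-0.86 to 0.06, adjusted p = 0.404). Of the 7, *FOXA1* and *MUC1* were above 1 FPKM in every library, and the other 5 were near or below the minimum in 1 line, so that their response in that line was not tested. The difference between responses was -0.19 for *FOXA1* (-0.58 to 0.21, adjusted p = 0.681) and -0.01 for *MUC1* (-0.83 to 0.80, adjusted p = 0.993), intervals that leave room for a difference in either direction.

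Among the related lists, some genes of HCC4006 rose or fell with DEM, where 8.45% of all genes were called higher and 10.7% lower. Of 8 alveolar type II genes tested, 3 fell and 1 rose. *SLC34A2* fell from 169 and 151 FPKM to 67.8 and 68.6 FPKM (log2 difference -1.21, SE 0.08, adjusted p = 0.00119), and this call held in 11 of 12 alternative settings. Its second start holds the antioxidant response element letters printed above, its first start holds none, and binding there was not measured here. The same letters lie before the starts of *ABCA3* (position -197) and *NKX2-8* (position -232), and neither gene was called with DEM. The part of the letters in any of these values was not tested. *CTSH*, a cathepsin that also cuts the surfactant protein B precursor, fell by 0.46 and *SFTA3* by 0.39, while *ETV5* rose by 0.44. Of 4 alveolar type I genes, *HOPX* (-0.89), *EMP2* (-0.42) and *CAV1* (-0.38) fell. Of 7 goblet and mucous cell genes, *SPDEF* (-0.70, 72.4 to 44 FPKM in the mean), *CREB3L1* (-0.41) and *AGR2* (-0.32) fell and *GCNT3* rose (0.89, 28.1 to 52.8 FPKM). Of 15 developmental factors, *SOX9* (-0.84, 12.2 to 6.32 FPKM), *EHF* (-0.43) and *ELF3* (-0.32) fell and *KLF4* (0.76), *KLF5* (0.52) and *IRX2* (0.39) rose. Many of these calls were less firm than that of *SLC34A2*. *GCNT3* and *SPDEF* also stayed called in 11 of 12 alternative settings and *HOPX*, *SOX9* and *KLF4* in 9, but *CTSH* and *EHF* did in 7, *ETV5*, *CAV1* and *KLF5* in 6, *EMP2*, *CREB3L1* and *AGR2* in 5 and *SFTA3* in 3, and *ELF3* and *IRX2* were not recomputed. The calls of *ETV5*, *CAV1*, *SFTA3*, *EMP2*, *CREB3L1* and *AGR2* were each lost without any 1 of the 4 HCC4006 libraries.

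Called genes of the remaining lists also lay in both directions. *TP63* (-0.80) and *PKP1* (-0.70) fell among 3 basal and squamous genes, and *CDX2*, at 1.67 and 2.13 FPKM with vehicle and 3.34 and 3.72 FPKM with DEM, rose (0.65, adjusted p = 0.042) as the gastrointestinal gene tested. *NKX2-1-AS1*, on the strand opposite *NKX2-1*, rose from 1.73 and 1.57 FPKM to 3.02 and 2.90 FPKM (0.58, adjusted p = 0.047) while *NKX2-1* itself did not pass the test. Of 9 epithelial genes, *KRT7* (-0.51), *KRT8* (-0.46) and *KRT18* (-0.40) fell and *CLDN4* (0.51) and *ESRP1* (0.51) rose. Of 12 alternative settings, *KRT7* stayed called in 11, *CLDN4* and *ESRP1* in 10, *TP63* and *PKP1* in 7, *CDX2* and *KRT8* in 6 and *NKX2-1-AS1* in 5, and *KRT18* was not recomputed. The calls of *TP63*, *PKP1*, *CDX2* and *NKX2-1-AS1* were each lost without any 1 of the 4 libraries. By limma 0 club cell genes of 2, 0 other mucins of 4, 0 ciliated cell genes of 4, 0 neuroendocrine genes of 1 and 0 markers of other cell types of 3 were called, with 0, 1, 2, 0 and 0 of them at an unadjusted p under 0.05. Over all genes in HCC4006, 4985 of 13542 were under that unadjusted threshold.

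In ABC1 *CLIC5* was the gene of these lineage lists that was called, falling from 42.4 and 39.2 FPKM to 17 and 16.1 FPKM (-1.25, adjusted p = 0.0247). This call held in 7 of 12 alternative settings and was lost without replicate 0 with vehicle (adjusted p = 0.268), replicate 1 with vehicle (adjusted p = 0.173) or replicate 1 with DEM (adjusted p = 0.0595), while the difference stayed between -1.31 and -1.20. By limma 0 alveolar type II genes of 5, 0 mucins of 3, 0 developmental factors of 14 and 0 epithelial genes of 9 were called, with 1, 1, 5 and 5 of them at an unadjusted p under 0.05. Over all genes in ABC1, 2771 of 12635 were under that unadjusted threshold. *SOX2*, *ELF5*, *FOXP2* and *ID2*, the factors that mark ABC1 against HCC4006, had differences of -0.19, -0.61, -0.37 and -0.12 with adjusted p from 0.189 to 0.692.

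**Figure D5:**
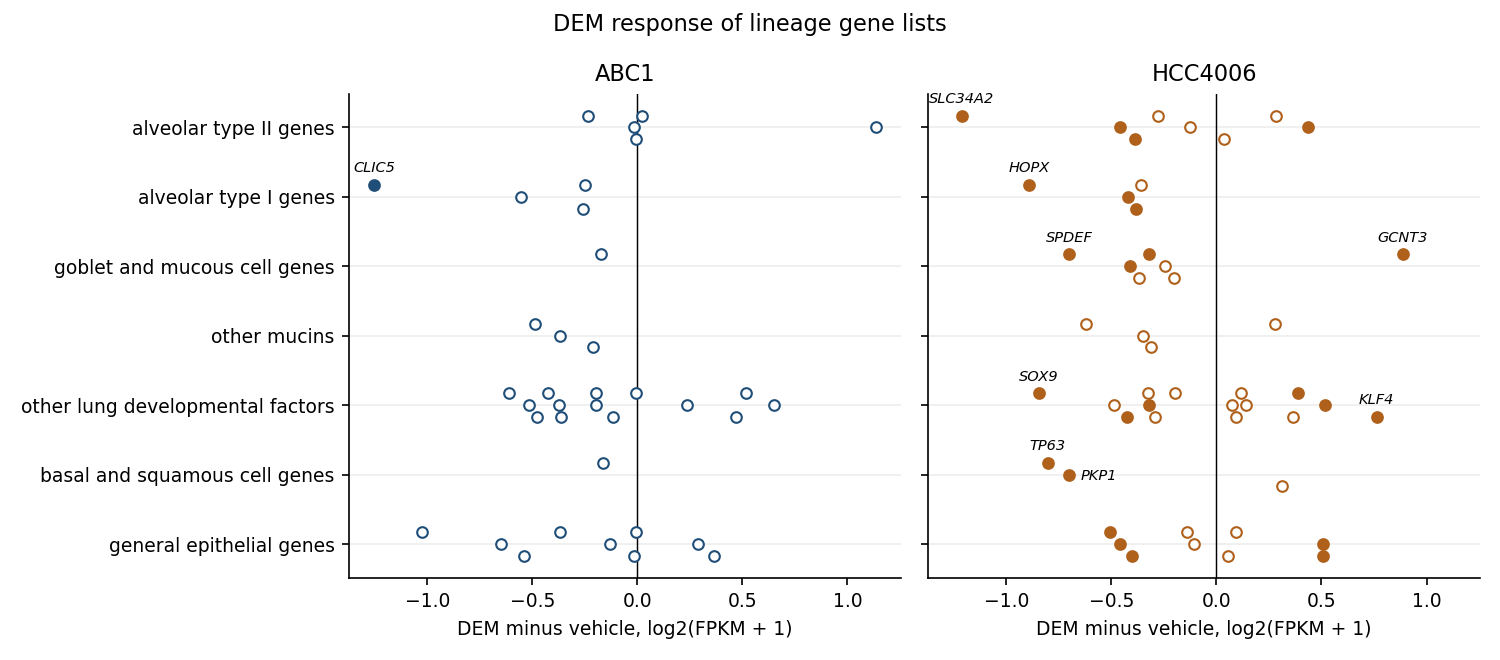
DEM minus vehicle difference of log2(FPKM + 1) for each tested gene of 7 lineage lists in ABC1 and HCC4006; a point is a gene and a filled point has an adjusted p under 0.05. *CLIC5* is the filled point in ABC1, and in HCC4006 filled points lie on both sides of 0 in 4 of the 7 lists, with *SLC34A2* farthest below and *GCNT3* farthest above.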

How the data were processed

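Poly(A)-selected, strand-specific libraries were compared, 2 per group, which the study's methods call biological duplicates. The p-values and SE rest on the spread between these libraries, which limma moderates for each gene by that of the other genes. The authors deposited 1 table of FPKM per library, with 57815 gene identifiers. The study's methods name TopHat on hg19 and Cufflinks for the estimates, while the submitters' processing notes name bcl2fastq 2.15.0, cutadapt 1.15, STAR 2.5.3a, SAMtools, Cuffnorm, HTSeq, DESeq2 and R 3.2.0, and which of them made the FPKM is not given in the sources used here. FPKM values carry no read counts, so depth is unknown, no counting interval is given, and a listed 0 may be a low level. The authors' own comparison tables (base mean, fold change, its error, test statistic and p-values from DESeq2) were not used. Symbols were matched for 55534 identifiers. *SFTA3* has 2 identifiers, and the one with the higher mean was used.

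From the FPKM values, limma 3.58.1 (R 4.3.3) with a mean-variance trend was run on log2(FPKM + 1), over genes whose mean in the libraries compared reached 1 FPKM, with Benjamini-Hochberg adjustment over all genes tested and calls at an adjusted p under 0.05, the study's threshold. The pseudocount of 1 FPKM understates the change of low genes. An exact permutation test of 2 against 2 libraries cannot go below p = 0.333. The fits were tested on simulated data. The 9 genes and the 14 lists of 150 related genes were chosen with earlier results of these data known, and a few genes of the lists, among them *FCGBP* and *PECAM1*, were not matched and are not reported here. In each list the up to 4 called genes with the largest difference are named. *ELF3*, *IRX2*, *KRT18*, *CAPS*, unchanged genes and genes near 0 were named after values were seen. The numbers 0 and 1 do not mark a shared culture in the labels and were not used as pairs. Alternatives were other pseudocounts, minimums and scaling, no trend, a replicate block, a model of all 8 libraries, and leaving out each library.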

Additional observations from a re-analysis of the deposited data

Results flagged for a closer look

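For 2 genes of the related lists the interaction term over all 8 libraries passed the threshold, but each gene was near 0 in 1 line, where no fall could be measured, and entered the test through the other. The 2 values therefore restate a fall within 1 line and do not show that the lines respond differently. *SLC34A2* had an interaction term (HCC4006 minus ABC1) of -1.11 on the log2 scale (SE 0.16, limma adjusted p = 0.0365). It fell in both HCC4006 libraries with DEM, while in ABC1 it was at most 0.155 FPKM in any library. The call was past the threshold in 4 of 15 alternative settings, with an adjusted p of up to 0.633 at a pseudocount of 0.1 FPKM. *CLIC5* had an interaction term of 1.27 (SE 0.16, limma adjusted p = 0.0254). It fell in both ABC1 libraries with DEM and was at most 0.068 FPKM in HCC4006, and the call was past the threshold in 5 of 15 alternative settings, with an adjusted p of up to 0.154.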

How the results depend on the processing

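Of the 9 genes, the 6 called between the lines stayed called in the same direction under all 12 alternatives, with vehicle and with DEM. *NKX2-1*, *FOXA2*, *NAPSA* and *GATA6*, and with DEM also *SOX2*, passed the minimum through the line in which they are high. For these genes nothing is read from a call that stayed. In HCC4006, *FOXA2* alone was called with DEM (1 gene), and the count was 0 with no minimum FPKM, 0 with a minimum of 0.3 FPKM and 0 with no trend, and 0 to 1 without each library. Over all genes, the 152 called with DEM in ABC1 became 0 with no minimum, 52 with a minimum of 0.3 FPKM, 299 with median-of-ratios scaling, 33 with no trend, 1494 in the model of all 8 libraries and 18 to 69 without each library. The 2591 called in HCC4006 became 370 with no minimum, 1553 in the model of all 8 libraries and 634 to 1028 without each library. The 87 genes called between the responses became 20 and 51 at pseudocounts of 0.1 and 0.5 FPKM, 403 with no minimum and 4 to 41 without each library. The 9305 called between the lines with vehicle became 5572 to 9005 and the 8624 with DEM 4434 to 8560 without each library. The causes of these shifts were not tested, beyond fewer libraries in the last setting.

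With a replicate block, 2348 genes were called in ABC1, 13 between the responses and 3 of the 9 genes in HCC4006, *FOXA2* with *FOXA1* (adjusted p = 0.0387) and *MUC1* (adjusted p = 0.0180). The numbers rest on no stated pairing, and deviations of same-numbered libraries correlated at r = 0.257 in ABC1 and 0.0538 in HCC4006 across genes.

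Leaving out a library, where the lone sample of a group is taken to vary like the other group, turned small differences round. The ranges were -0.22 to 0.51 for *MUC1* between the lines with vehicle and -0.065 to 0.32 with DEM. In ABC1 with DEM they were -0.20 to 0.016 for *FOXA1*, -0.11 to 0.048 for *GATA6* and -0.66 to 0.069 for *MUC1*, and in HCC4006 -0.11 to 0.032 for *NKX2-1*. Between the responses they were -0.082 to 0.13 for *NKX2-1*, -0.092 to 0.064 for *GATA6*, -0.25 to 0.028 for *SOX2* and -0.38 to 0.35 for *MUC1*. Among the other genes named in HCC4006, 104 of 324 alternative values kept the direction and lost the call.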
